A study of Mus musculus with 4 samples.

Results

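The H2 genes, the mouse major histocompatibility complex, were followed in sorted airway smooth muscle cells when vitamin A was withheld or retinoic acid receptors were blocked. All probe sets with a gene symbol starting H2- were taken, together with B2m, Cd74, Ciita, Nlrc5 and Tapbp, which gave 42 genes of the 23185 named on the array. They comprised 3 classical class I genes (H2-K1, H2-D1 and H2-K2), 23 nonclassical class I genes of the Q, T and M groups and H2-Bl, 10 class II genes, the 5 cofactors, and H2-Ke6, an enzyme gene that shares the prefix. RefSeq lists 4 of them, H2-K2, H2-Bl, H2-T10 and H2-Ea, as transcribed pseudogenes in the C57BL/6J assembly.

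All 4 pools came from adult Acta2-hrGFP;Cspg4-DsRED mice, in which the Acta2 promoter drives a green and the Cspg4 promoter a red reporter. Lung cells that were green and not red (hrGFP+DsRED-) were sorted as airway smooth muscle, and cells of 3 mice were pooled for each array. VAS mice had normal food, sufficient in vitamin A (15 IU per gram). VAD mice were switched to food deficient in it (under 0.1 IU per gram), for 3 days by most of the labels and for 5 days by 1 statement of the protocol. CTR mice ate a powdered sufficient diet mixed with corn oil for 3 days, and BMS mice the same diet mixed with BMS, a pan-retinoic acid receptor antagonist, at 5 mcg per gram. The strain background and H2 haplotype of the pools are not given in the sources used here. Each group is 1 array, so there is no spread within a group, and "higher" and "lower" below describe these arrays. The number of arrays limits the precision.

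Class I molecules, made of a heavy chain and the B2m light chain, present peptides from inside nearly every cell, and are loaded with help of Tapbp (tapasin). Nlrc5 is the transactivator of class I genes. Class II molecules are alpha and beta chain pairs that present peptides from endocytosed protein, mostly on dendritic cells, B cells and macrophages. In the lung, alveolar type 2 cells carry them too. Cd74 is the invariant chain that guards the class II groove, H2-DM exchanges peptides in it, and Ciita is the master regulator that class II transcription needs.

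Acta2, whose promoter drives the green reporter used in the sort, had log2 levels of 11.96, 12.12, 11.98 and 11.95. Every set of 4 values is a set of log2 levels given for VAS first, then VAD, CTR and BMS. All 10 smooth muscle markers passed the filter on low values, which asked that the highest of a gene's 4 values reach 6.05, the median of all named values. So did 53.5% of all named genes, all 10 fibroblast markers and 6 of 6 pan leukocyte genes. Of the pan leukocyte genes, Ptprc, Cd52 and Cd53 were below 6.05 in CTR. The fibroblast markers Dcn, at 12.56, 12.42, 12.47 and 12.62, and Dpt, at 12.43, 12.34, 12.35 and 12.58, stood above Acta2 on every array. Array medians ran from 5.97 to 6.02.

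Of the 42 H2 genes and cofactors, 23 passed the filter. All 3 classical class I genes, all 5 cofactors, H2-Ke6, 7 of 23 nonclassical class I genes and 7 of 10 class II genes did so. H2-T10 was the 1 gene that passed through a single array, BMS, so its inclusion already requires that array to be high. The 16 nonclassical genes below the filter ranged from 3.01 to 5.97 over all arrays. They were H2-Q1, H2-Q2, H2-T3, H2-T24, H2-Bl, H2-M1, H2-M2, H2-M5, H2-M9, H2-M11 and the 6 H2-M10 genes, which encode class I-like proteins known from the vomeronasal organ. The largest difference among them was that of H2-Bl in VAD against VAS, with -0.87, and none reached 2-fold. The class II genes below the filter were H2-Oa and H2-Ob, chains of the H2-DM inhibitor H2-O, and H2-Eb2, at 4.14 to 6.02.

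**Figure D1:**
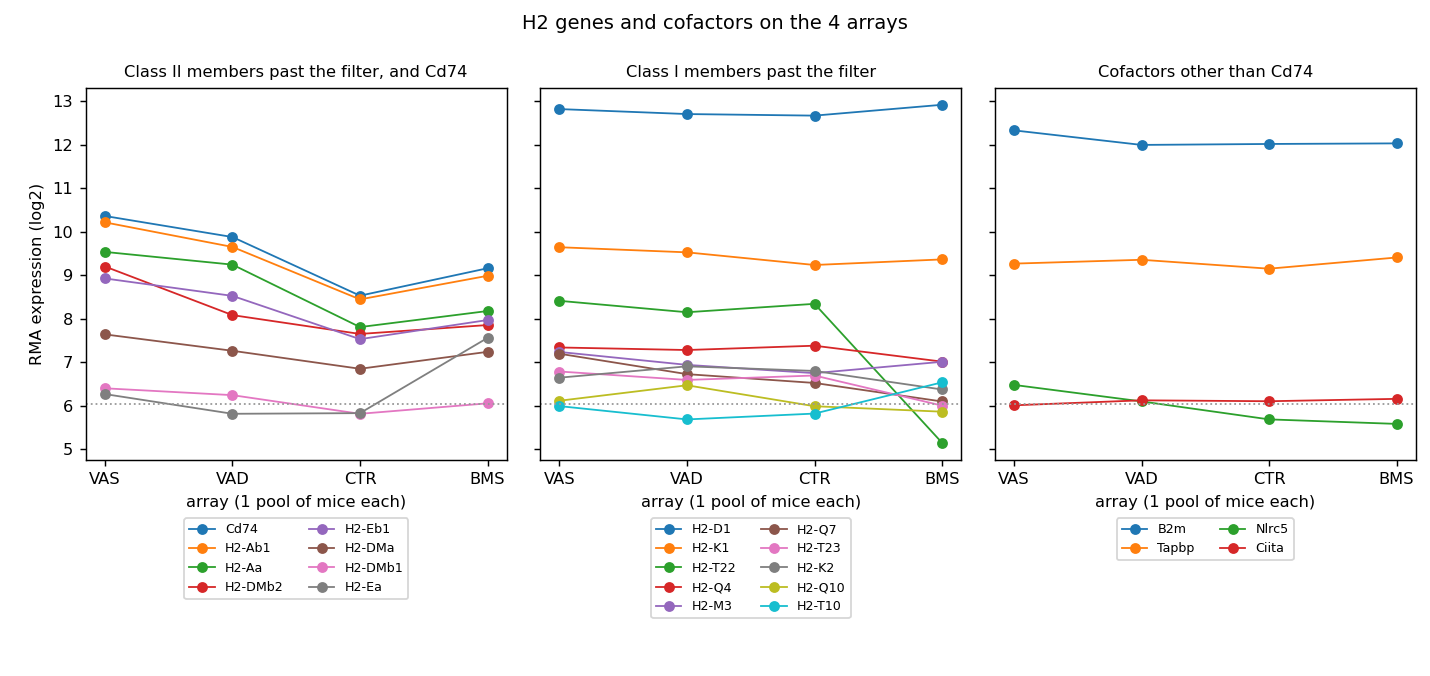
RMA expression (log2) of the 23 genes past the filter on each array, with class II genes and Cd74 on the left, class I genes in the middle and the other cofactors and regulators on the right (H2-Ke6 not drawn). Each point is 1 array and the dotted line is the filter at 6.05. Class II genes other than H2-Ea are highest in VAS and lowest in CTR, and H2-T22 drops out in BMS alone, at 5.15.

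Apart from H2-Ea, class II genes past the filter and the invariant chain differed more between the control pools than within either experiment. H2-Ab1, the beta chain of I-A (Entrez gene 14961), stood at 10.22, 9.65, 8.45 and 8.99. H2-Aa, its alpha chain (14960), stood at 9.54, 9.25, 7.81 and 8.18. Both were highest in VAS, followed by VAD, BMS and CTR. H2-Eb1, the beta chain of I-E (14969), stood at 8.93, 8.53, 7.54 and 7.97. Cd74 (16149) stood at 10.37, 9.88, 8.53 and 9.16. The same order, VAS, VAD, BMS and CTR from high to low, held for both.

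The peptide exchange genes followed that order as well. H2-DMb2 stood at 9.20, 8.09, 7.65 and 7.86, with VAS apart from the other arrays. H2-DMa stood at 7.64, 7.27, 6.85 and 7.24, and H2-DMb1 at 6.41, 6.25, 5.82 and 6.06. In all, 6 of the 7 class II genes past the filter had VAS highest, then VAD, BMS and CTR, as had Cd74. That order was seen in 6.85% of the 12395 genes past the filter, and VAS highest with CTR lowest in 11.4%. The exception was H2-Ea, and the 3 class II genes below the filter did not have that order either.

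Between the control pools, CTR and VAS, 5 genes were at least 2-fold lower in CTR and none 2-fold higher, where 1.71% and 0.323% of genes past the filter were. Cd74 differed by -1.83, a 3.56-fold difference. H2-Ab1 differed by -1.77, H2-Aa by -1.73, H2-DMb2 by -1.55 and H2-Eb1 by -1.39. All 7 class II genes past the filter lay below 0, as 49.5% of genes past it did. Their median was -1.39, beside 0.00 for all genes past the filter. Of all 10 class II genes 9 lay below 0, with a median of -0.69. H2-DMa with -0.79 and H2-DMb1 with -0.59 did not reach 2-fold. These pools were both vitamin A-sufficient, but differ in experiment, diet form and vehicle, which cannot be told apart here.

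Under the deficient diet, class II genes were lower in VAD than in VAS, and 1 passed 2-fold. H2-DMb2 differed by -1.12, where 0.42% of genes past the filter were 2-fold lower and 0.234% 2-fold higher. H2-Ab1 differed by -0.57, Cd74 by -0.48, H2-Ea by -0.45, H2-Eb1 by -0.40, H2-DMa by -0.38, H2-Aa by -0.29 and H2-DMb1 by -0.16. All 7 class II genes past the filter lay below 0, where 48.5% of genes past it did, with a median of -0.40 beside 0.01. Of all 10 class II genes 9 lay below 0, with a median of -0.39. H2-Ob was the exception, with 0.21. Against CTR in place of VAS the differences of Cd74 and of 6 of the 7 class II genes past the filter turned, while H2-Ea stayed just below 0. In that comparison 3 genes were 2-fold higher and none lower, where 1.4% and 0.363% of genes past the filter were. They came to 1.20 for H2-Ab1, 1.43 for H2-Aa, 1.35 for Cd74 and 0.43 for H2-DMb2, so the direction of these genes depends on which control array is used.

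With the receptor antagonist, class II genes other than H2-Ea stood slightly higher in BMS than in CTR, all under 2-fold. Cd74 was higher by 0.63, H2-Ab1 by 0.54, H2-Eb1 by 0.44, H2-DMa by 0.39, H2-Aa by 0.37, H2-DMb1 by 0.24 and H2-DMb2 by 0.20. H2-Oa, H2-Ob and H2-Eb2 lay between -0.09 and -0.03. The median of the 7 class II genes past the filter, H2-Ea included, was 0.39, beside 0.01 for all genes past it. That of all 10 was 0.30. Against VAS the differences of Cd74 and of the class II genes past the filter other than H2-Ea were of the other sign, while H2-Oa and H2-Eb2 stayed below 0. In that comparison 6 genes were 2-fold lower and 1 higher, where 1.46% and 0.565% of genes past the filter were. The class II genes had -1.23 for H2-Ab1, -1.36 for H2-Aa, -1.35 for H2-DMb2 and -1.20 for Cd74.

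H2-Ea, the alpha chain gene of I-E (Entrez gene 100504404), did not follow the other class II genes. It stood at 6.27, 5.82, 5.84 and 7.56, so that BMS was high alone and the other arrays lay within 0.45 of each other. BMS was 1.73 above CTR and 1.29 above VAS. VAD and CTR were below the filter and detection is unknown, so no exact fold is given against CTR. In BMS against CTR, 1.07% of genes past the filter were 2-fold higher and 0.282% 2-fold lower. Its partner chain H2-Eb1 was 0.44 higher in that comparison. Mice of the H2 haplotype b, such as C57BL/6J, are known to make no I-E alpha chain, while several other haplotypes do.

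The regulators of class II genes showed no 2-fold difference. Ciita stood at 6.02, 6.13, 6.11 and 6.16, a range of 0.15, near the filter on every array. Of the 15 measured regulators of H2 genes (interferon gamma receptor and signalling genes, RFX and NFY subunits, IRF factors, Creb1 and Socs1), 15 passed the filter and none was 2-fold apart in any of the 3 comparisons. Nfyb, an NFY subunit, stood at 7.95, 7.46, 7.49 and 7.29. Rfxank, an RFX subunit, stood at 8.34, 9.0, 8.73 and 8.83, and Creb1 at 9.41, 9.55, 9.79 and 9.52. The list's medians were -0.04 in VAD against VAS, -0.10 in BMS against CTR and 0.02 in CTR against VAS.

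Of 8 genes that prepare class II peptides or control class II turnover (cathepsins and other proteases, the thiol reductase Ifi30 and ubiquitin ligases), 7 passed the filter. All 7 lay below 0 in CTR against VAS, as 49.5% of genes past the filter did, from -0.02 for Ctsb, with a median of -0.48. Ctsh, cathepsin H, stood at 8.09, 7.85, 6.91 and 8.58 and was 2-fold lower in CTR than in VAS and 2-fold higher in BMS than in CTR, by 1.68. Ctss, the cathepsin that degrades the invariant chain, stood at 8.25, 8.46, 7.57 and 7.81. Ctsl stood at 9.17, 8.91, 8.70 and 8.93. The list's medians were -0.07 in VAD and 0.23 in BMS, each against its own control.

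Mean levels of several marker lists of other cells differed between the arrays beside class II. Mean log2 levels of the 6 pan leukocyte markers were 7.53, 7.36, 6.35 and 6.66, by these means in the order of class II. Single markers differed from it, with Laptm5, Coro1a and Rac2 highest in VAD and Cd52 lowest in BMS. In VAD against VAS 3 of the 6 lay above 0 and 3 below, with a median of -0.03. Ptprc, the leukocyte antigen CD45, stood at 7.47, 7.39, 5.97 and 6.21. The 6 of 11 measured macrophage and monocyte markers past the filter had means of 7.68, 7.61, 7.02 and 7.19, and Adgre1, Marco and Siglecf were below it. Of these 6, Cd14, Cd68 and Mrc1 were lowest in BMS, and Cd14 and Mrc1 were highest in VAD. In BMS against CTR 3 lay above 0 and 3 below, with a median of -0.03. The 6 of 9 alveolar type 2 markers past the filter had means of 8.10, 7.36, 6.85 and 7.27. By their means this list and the macrophage and monocyte list also had the order of class II, VAS, VAD, BMS and CTR from high to low. Sftpc, surfactant protein C, stood at 10.86, 9.28, 7.32 and 9.15 and differed most, by -3.54 in CTR against VAS. Abca3 at 7.28, 7.33, 7.29 and 7.45 and Etv5 at 8.35, 8.03, 8.34 and 8.50 had no such difference between the controls and were highest in BMS.

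Dendritic and B cell lists were mostly below the filter. For dendritic cells 3 of 10 passed, with means of 6.89, 6.93, 6.46 and 6.53, and Itgax, Flt3, Zbtb46, Xcr1 and Clec9a were below it. For B cells 3 of 9 passed, with means of 6.13, 5.48, 5.38 and 5.83, and Cd79a, Ms4a1 and Pax5 were below it. The T and NK cell list, with 3 of 10 past the filter, had means of 7.14, 7.56, 6.84 and 7.31. Means of the 8 endothelial markers past the filter were 7.32, 7.42, 7.29 and 7.62. Smooth muscle markers had means of 11.26, 11.45, 11.29 and 11.13, pericyte and vascular smooth muscle markers 9.06, 9.16, 9.52 and 9.30, and fibroblast markers 10.06, 10.15, 9.53 and 10.38. Of the 10 fibroblast markers, 4 were 2-fold lower in CTR than in VAS, where 1.71% of genes past the filter were. They were Pi16 by -2.14, Clec3b by -1.49, Cd34 by -1.37 and Scara5 by -1.01. In BMS against CTR 5 of the 10 were 2-fold higher, where 1.07% of genes past the filter were. Also 2-fold lower in CTR than in VAS were 4 of 6 pan leukocyte and 3 of 6 alveolar type 2 markers past the filter. So were 2 of 6 macrophage and monocyte markers and 1 of 3 of the T and NK list. The means of the dendritic, B, T and NK, endothelial and fibroblast lists were also lowest in CTR. The part of other cells in the class II differences was not tested, and in pooled cells fewer cells of a type and less RNA per cell cannot be told apart.

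**Figure D2:**
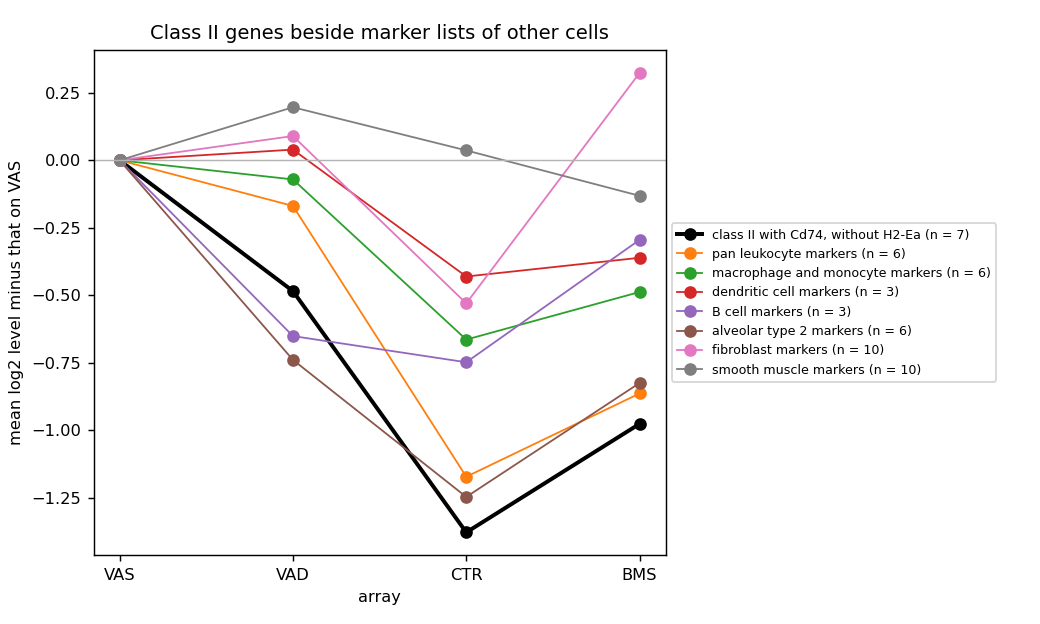
Mean log2 level of class II genes (with Cd74, without H2-Ea, black) and of marker lists, as the difference from the VAS array; n is the number of genes past the filter. All lines but that of smooth muscle markers, fibroblast markers included, are lowest in CTR, and smooth muscle markers stay within 0.2 of VAS.

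The promoter sequences of the class II genes are shown because most of these genes had the same order of arrays. Class II promoters are known for an X box and a Y box, which RFX and NFY bind and on which Ciita acts. The 200 bases before the start site are shown for 4 class II genes with an entry in RefSeq's promoter table (build GRCm38.p6) and for H2-T22, described below, 5′ to 3′ on the gene's strand. Capitals mark the core of the Y box, GATTGG. They also mark the core of a cyclic AMP response element, TGACG. The last motif marked is the core of an interferon-stimulated element, GAAANNGAAA. Each was searched on both strands, so capitals can also show its reverse complement. In H2-Aa, TGACG and its reverse overlap.
H2-Aa, chr17:34287824-34288023, minus strand: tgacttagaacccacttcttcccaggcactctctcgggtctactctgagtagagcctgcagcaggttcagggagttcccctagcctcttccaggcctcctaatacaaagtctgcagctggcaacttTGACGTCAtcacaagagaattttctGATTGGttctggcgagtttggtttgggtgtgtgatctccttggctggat
H2-Eb1, chr17:34305667-34305866, plus strand: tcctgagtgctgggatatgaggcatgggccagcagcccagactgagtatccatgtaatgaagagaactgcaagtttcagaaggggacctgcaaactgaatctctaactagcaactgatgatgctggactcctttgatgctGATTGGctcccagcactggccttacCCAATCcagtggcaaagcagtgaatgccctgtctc
H2-DMb1, chr17:34152991-34153190, plus strand: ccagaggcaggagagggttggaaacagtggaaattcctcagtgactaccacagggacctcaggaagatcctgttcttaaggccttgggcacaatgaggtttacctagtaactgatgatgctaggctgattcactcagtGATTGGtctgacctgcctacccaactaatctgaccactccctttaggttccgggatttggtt
H2-DMb2, chr17:34145049-34145248, plus strand: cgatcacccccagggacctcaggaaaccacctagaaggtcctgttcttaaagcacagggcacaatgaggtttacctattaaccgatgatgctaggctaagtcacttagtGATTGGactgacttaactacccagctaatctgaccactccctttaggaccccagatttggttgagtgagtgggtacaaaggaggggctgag
H2-T22, chr17:36042743-36042942, minus strand: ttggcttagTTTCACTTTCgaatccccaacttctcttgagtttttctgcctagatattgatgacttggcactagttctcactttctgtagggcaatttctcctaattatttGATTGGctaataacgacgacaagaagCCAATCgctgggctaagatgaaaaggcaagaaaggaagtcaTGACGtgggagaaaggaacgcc

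In the 250 bases before the start site, on both strands, GATTGG was found in 8 of 8 class II genes with an entry, 2 of 2 classical and 13 of 19 nonclassical class I genes, where 16.6% of the 27025 genes in the table had it. TGACG was found in both classical class I genes, 9 of 19 nonclassical class I genes and 1 of 8 class II genes, where 19.8% of all genes had it. GAAANNGAAA was found in H2-T22, H2-T23 and B2m among the 32 members with an entry, where 3.46% of all genes had it. The Y box core also stood in H2-Oa, H2-Ob and H2-Eb2, which were below the filter. Outside class I and class II it was found in H2-Ke6, the enzyme gene, and in B2m, 1 of the 2 cofactors with an entry. These matches describe letters in these windows.

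Classical class I genes differed little between the arrays. H2-D1 (Entrez gene 14964) stood at 12.82, 12.71, 12.67 and 12.92, and H2-K1 (14972) at 9.65, 9.53, 9.24 and 9.37. H2-K2, the pseudogene, stood at 6.65, 6.91, 6.80 and 6.38. The largest difference among the 3 was -0.43, for H2-K2 in BMS against CTR, and none reached 2-fold. H2-K1 was lowest in CTR, with a difference of -0.41 from VAS. The classical and several nonclassical class I genes are near-identical in sequence, so signal could be shared or split between their probe sets, and single genes of this group are uncertain to that extent.

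The class I partners were similar. B2m stood at 12.33, 12.00, 12.02 and 12.03, with VAS higher than the other arrays by 0.30 to 0.33. Tapbp stood at 9.27, 9.36, 9.15 and 9.41. Nlrc5 stood at 6.48, 6.10, 5.69 and 5.59 and differed by -0.79 in CTR against VAS, with CTR and BMS below the filter. Of the 13 other class I processing and loading genes, 1 was 2-fold lower in CTR than in VAS, and none was 2-fold apart within either experiment. It was Psmb9, an immunoproteasome subunit, at 8.49, 8.07, 7.45 and 8.09. Tap1, a peptide transporter subunit, stood at 9.56, 9.23, 9.22 and 8.67, and Psmb8, another immunoproteasome subunit, at 8.24, 8.03, 7.59 and 7.76. The list's medians were 0.05 in VAD, 0.16 in BMS and -0.31 in CTR against VAS.

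Among nonclassical class I genes, H2-T22 was low in BMS alone. H2-T22, a ligand of a subset of gamma delta T cells (Entrez gene 15039), stood at 8.42, 8.15, 8.35 and 5.15. VAS, VAD and CTR lay within 0.26 of each other, and BMS was below the filter. The difference of -3.19 from CTR ranked lowest of the 12395 genes past the filter. It is a difference of RMA values, and since the BMS value is below the filter and detection is unknown, no exact fold is given. In all, 1 of the 7 nonclassical class I genes past the filter was 2-fold lower in BMS than in CTR and none higher, at the background given above.

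Other genes of the T group stood on either side of CTR in BMS. H2-T23, Qa-1, a ligand of natural killer receptors, stood at 6.79, 6.6, 6.70 and 6.01, with a difference of -0.69 in BMS against CTR. H2-T10, a pseudogene in the C57BL/6J assembly, stood at 6.0, 5.69, 5.83 and 6.54, with BMS 0.72 higher than CTR. H2-Bl, below the filter, was 0.61 higher, H2-T24 0.21 higher, and H2-T3 differed by -0.18. H2-T23 and H2-T22 are neighbours in RefSeq, and Gm6034, the next gene on the array past H2-T22, differed by -0.14.

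The 3 Q genes that passed the filter were lower in BMS than in CTR, as were 48.5% of all genes past it. H2-Q7, a Qa-2 gene, stood at 7.20, 6.73, 6.53 and 6.10 and differed by -1.10 in BMS against VAS. H2-Q4 stood at 7.34, 7.29, 7.38 and 7.02. H2-Q10, a secreted class I protein known from liver, stood at 6.12, 6.48, 5.99 and 5.87. In BMS against CTR these 3 differed by -0.43, -0.37 and -0.13, and H2-Q10 was below the filter on both of these arrays. Of the Q genes that did not pass, H2-Q1 was 0.33 higher in BMS and H2-Q2 differed by -0.09. H2-M3, which presents formylated peptides, stood at 7.24, 6.94, 6.75 and 7.02, with VAS highest and CTR lowest as in class II. Over all 23 nonclassical genes the median was -0.19 in VAD, -0.07 in BMS and -0.12 in CTR against VAS. H2-Ke6, a hydroxysteroid dehydrogenase gene, stood at 8.94, 8.67, 8.83 and 9.03.

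**Figure D3:**
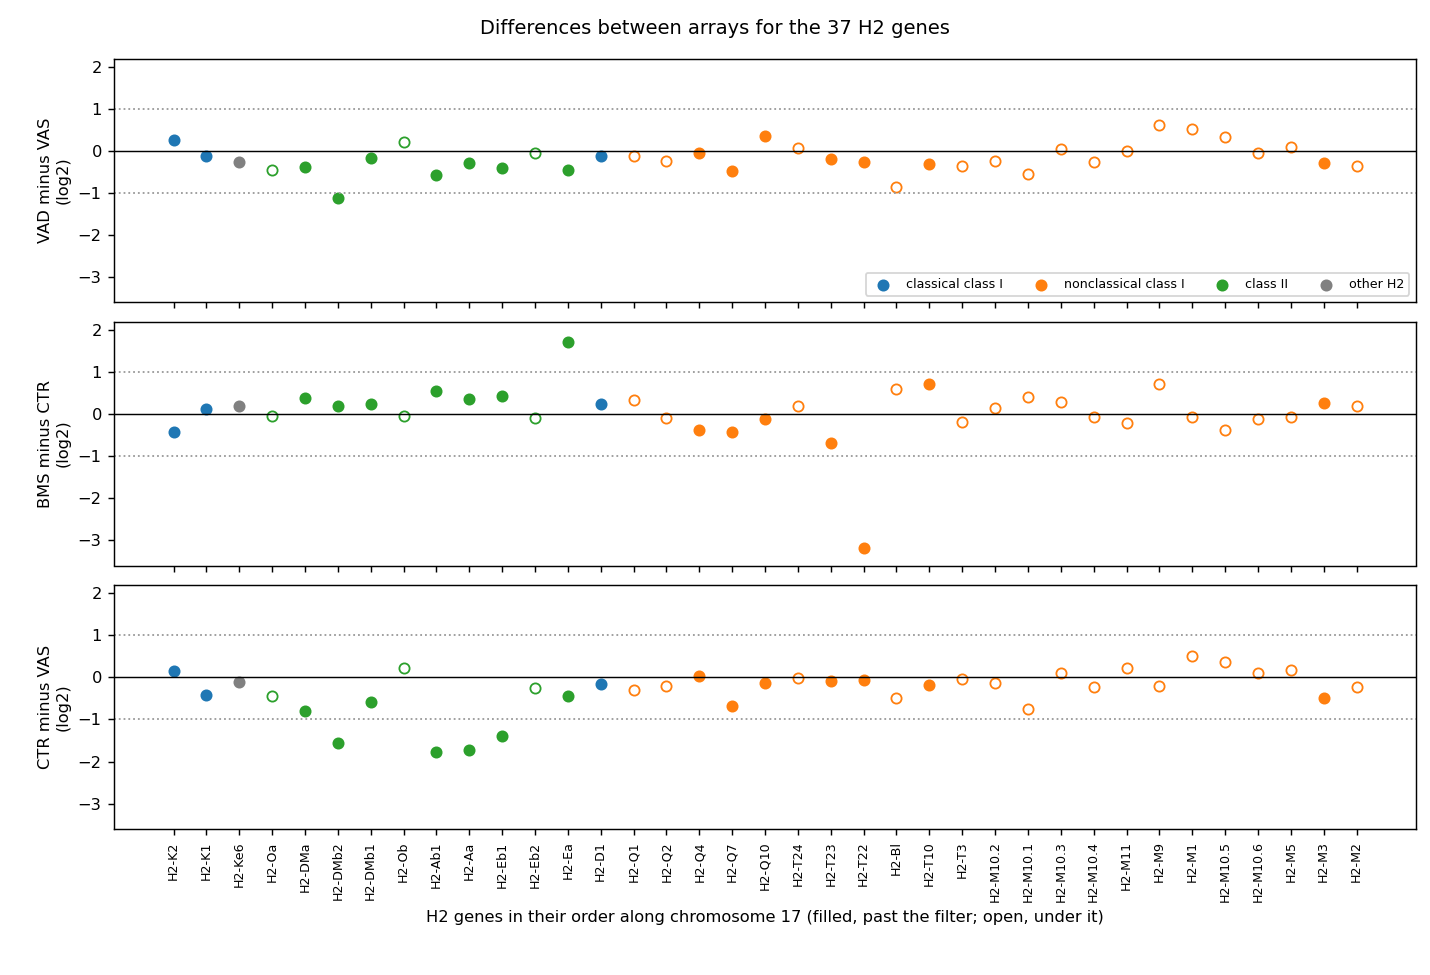
Differences between arrays (log2) for the 37 H2 genes in their order along chromosome 17, with VAD minus VAS on top, BMS minus CTR in the middle and CTR minus VAS at the bottom. Dotted lines mark 2-fold and open points are genes below the filter. Class II genes reach from -0.44 to -1.77 in CTR minus VAS among those past the filter, and H2-Ea (1.73) and H2-T22 (-3.19) are the genes past 2-fold in BMS minus CTR.

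A single array stood at least 2-fold from each of the other 3 for 3 of the 23 genes past the filter, beside 0.976% of all genes past it. BMS was below the others for H2-T22, as for 0.121% of genes past the filter, and above them for H2-Ea, as for 0.258%. VAS was above the others for H2-DMb2, as for 0.153%. H2-Ea and H2-T22 are the genes past 2-fold between BMS and CTR, and both kept 2-fold against VAS, so that in both the BMS array carried the difference. The H2 haplotype of the pools is not given, so it was not tested whether BMS differed from the other pools in haplotype, and both the -3.19 of H2-T22 and the 1.73 of H2-Ea are to be read with that limit.

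**Figure D4:**
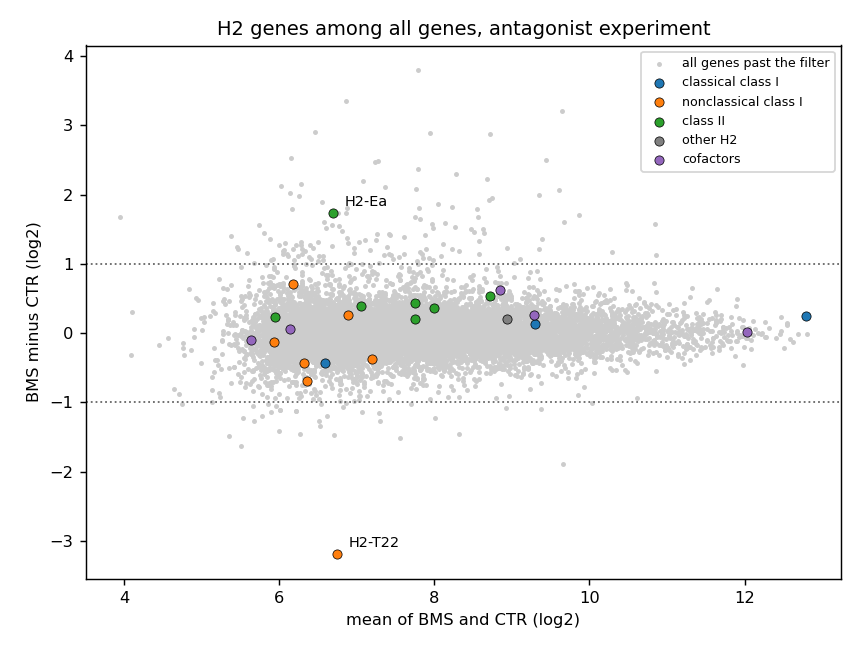
BMS minus CTR (log2) against the mean of both arrays (log2) for all 12395 genes past the filter (grey) and the H2 genes and cofactors (coloured by class). Dotted lines mark 2-fold. H2-T22 is the lowest point, at -3.19, and H2-Ea lies at 1.73, while all other coloured points are within 2-fold.

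Taking VAD and BMS together against VAS and CTR, with the experiment as a block, limma called 0 of the 23 genes past the filter and 0 of all 12395 at an adjusted p under 0.05 (0% called). At an unadjusted p under 0.05 it gave 1 of the 23, H2-Q7, beside 3.84% of all genes. With no block the count on all 4 arrays was 0, beside 1.86% of all genes. Under the other settings run on all 4 arrays it was 1 or 2, beside 3.3% to 4.05% of all genes. It also varied between the fits that left out 1 array. Those had no block and 1 array left on a side, so their counts are not given. H2-Q7 differed by -0.45 (SE 0.13, limma adjusted p = 1), with 2 of 2 pairs lower. H2-T22 differed by -1.73 (SE 0.68, limma adjusted p = 1) and H2-T23 by -0.44 (SE 0.17, limma adjusted p = 1). H2-Ab1, H2-Aa, H2-Eb1, H2-DMa, H2-DMb1 and Cd74 had differences from -0.01 to 0.07, since their values were lower in VAD and higher in BMS than in the control of each experiment. With 1 residual degree of freedom, 0 calls do not show that these genes did not differ.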

How the data were processed

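RNA from 4 pools of sorted airway smooth muscle cells was measured on 1 Affymetrix array per pool. The authors used RMA (background correction, normalization between arrays and probe set summary) from affy 1.36.1 under R 2.15.1, per the submitters' processing notes, and the deposited table holds its log2 values. Which arrays were normalized together is not given. RMA makes distributions nearly equal, which hides any change common to most genes.

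The platform annotation gave 1 gene symbol to 23185 of 25206 probe sets, none several, and 2021 are unnamed here. All 23185 matched RefSeq by Entrez number. H2 genes were taken by symbol, with 5 cofactors added. The filter on low values kept 12395 genes whose highest value was at least 6.05, the median over named genes and arrays. Differences of 2 log2 values were counted at 2-fold without a test, as there is 1 array per group. VAD and BMS were also set against VAS and CTR with limma 3.58.1 (lmFit and eBayes, experiment as a block, Benjamini-Hochberg over the 12395 genes), which has 1 residual degree of freedom. Values on 4 arrays are given for every member past the filter, and for up to 3 genes of each pathway list by mean absolute difference. Other genes were named after their values were seen. Members, lists and tests were chosen with earlier results of these data known. Alternatives were other filters, thresholds, normalizations, controls and limma settings. The steps were tested on simulated data. Python 3.11.15 and R 4.3.3 were used.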

Additional observations from a re-analysis of the deposited data

Results flagged for a closer look

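Past 2-fold in one experiment and of the other sign in the other stood H2-DMb2 and H2-Ea. H2-DMb2 differed by -1.12 in VAD minus VAS and by 0.20 in BMS minus CTR. H2-Ea differed by -0.45 in VAD minus VAS and by 1.73 in BMS minus CTR. The difference between the experiments was not tested in either gene, since each side is 1 array.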

How the results depend on the processing

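Renormalizing the 4 arrays by quantiles or by cyclic loess moved the differences of the 23 genes by at most 0.08 and 0.06 (log2) and changed no count of genes past 2-fold. The choice of control array mattered more. With CTR in place of VAS, VAD had 3 genes past 2-fold (Cd74, H2-Aa and H2-Ab1, all higher) in place of 1, and H2-DMb2 turned to 0.43. Against the mean of both controls it had 0. With VAS in place of CTR, BMS had 7 genes in place of 2, 6 of them lower. At 1.5-fold there were 5 genes in BMS against CTR, 9 in CTR against VAS and 5 with 1 array apart. At 3-fold there were 0 in VAD against VAS, 3 in CTR against VAS and 1 with 1 array apart, H2-T22. The share of all genes was counted at 2-fold only, so the counts at 1.5-fold and 3-fold have no background beside them. With the filter at the 75th percentile, BMS against CTR had 1, H2-T22, since H2-Ea lies below 7.67. The limma fit called 0 members under every setting run, leaving out each array included (0 to 0). The pairing by experiment is in that fit, and without this block it also called 0. At an unadjusted p under 0.05 the count of members moved from 1 to 0 without the block, where the share of all genes was 1.86%. It also varied between the fits that left out 1 array, which had no block and 1 array on a side. Their unadjusted counts are therefore not given. Alternatives on the order of arrays and the class II medians were chosen after seeing the data. Detection above background per probe set is unknown here.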

Other observations

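Between the first and the last H2 gene on chromosome 17 the array holds 145 other named genes, of which 84 passed the filter. None of these 84 was 2-fold apart in VAD against VAS or in BMS against CTR. Of all genes past the filter, 0.42% were 2-fold lower and 0.234% higher in VAD, and 0.282% and 1.07% in BMS. A count of none among 84 is near these shares. In CTR against VAS 4 (4.76%) were 2-fold lower and none higher, where 1.71% and 0.323% of genes past the filter were. These 4 are named here after their values were seen. Psmb9 is given above. Cfb, complement factor B, stood at 7.5, 7.94, 6.29 and 6.77 in VAS, VAD, CTR and BMS, and C2, complement component 2, at 7.94, 7.41, 6.91 and 7.41. Lst1, a leukocyte gene, stood at 6.77, 6.33, 5.30 and 5.42.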
